A study of Mus musculus with 4 samples.

Results

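Small leucine-rich proteoglycans (SLRPs) are secreted matrix proteins built around a run of leucine-rich repeats. They bind collagen and set the width and spacing of its fibrils, and several also hold growth factors in the matrix. Most carry glycosaminoglycan chains, chondroitin or dermatan sulfate on decorin and biglycan and keratan sulfate on lumican, keratocan, fibromodulin and osteoadherin. Connective tissue fibroblasts, tendon cells and cartilage cells each make their own mix of them. The genes described here are 10 of the 23284 genes in the count files and were taken by name: *Dcn* (decorin), *Bgn* (biglycan) and *Aspn* (asporin) of class I, *Fmod* (fibromodulin), *Lum* (lumican), *Kera* (keratocan), *Prelp* (prolargin) and *Omd* (osteoadherin) of class II, *Ogn* (osteoglycin) of class III and *Podn* (podocan) of class V. All 10 passed the filter on low counts that left 15645 genes to test.

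RNA came from mesenchymal cells of E13.5 limbs of C57BL/6J embryos, dissociated and sorted for live GFP-positive cells. Both groups carry the *Osr1* GCE allele, a knock-in of eGFP and CreERt2 that marks Osr1+ cells: GCE/+ embryos carry it on 1 chromosome and serve as controls, and GCE/GCE embryos carry it on both. There were 2 embryos of each genotype, 1 per library, numbered 1 and 2 here as in the sample titles, so each group has n = 2. The sort took propidium iodide negative cells with GFP, names no marker that would remove another cell type, and no embryo without the allele was analysed here.

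The 4 libraries held 52121596 to 61402140 counts. Values are CPM, that is counts scaled to library size, after TMM scaling. Where genes are compared with each other, TPM values are used, in which the value is also divided by exon length. In the shallowest library 3 counts amount to 0.0574 CPM. *Osr1* had 81.9 and 79.1 CPM in GCE/+ embryos 1 and 2 and 11.9 and 13.9 CPM in GCE/GCE embryos 1 and 2 (log2 fold change -2.64, SE 0.11), the lower values being in the libraries labelled GCE/GCE. GCE/GCE embryo 1 stood apart in *Xist*, the RNA of the inactive X chromosome, with 1142 CPM against at most 2.63 CPM in the other 3 libraries.

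Of the 10 genes edgeR called 1 lower and 1 higher, where 0.927% and 0.895% of all tested genes were. *Kera* fell to 0.61 times its GCE/+ level and *Fmod* rose to 1.73 times, and these 2 passed an adjusted p of 0.1 in the quasi-likelihood test of edgeR. *Dcn* and *Lum* were lower in both GCE/GCE embryos than in both controls without passing in edgeR. DESeq2 called both genes lower, where 1.69% of its tested genes were. *Aspn* and *Podn* were higher in both GCE/GCE embryos without passing in edgeR or DESeq2. *Bgn*, *Prelp*, *Omd* and *Ogn* overlapped between the genotypes. These 3 lower and 3 higher genes of 10 stand beside 19.1% and 19.2% of all tested genes that were lower or higher in both mutants, so such a division is not particular to the family. The 3 lower genes are neighbours on chromosome 10, and none of the other 7 was lower in both GCE/GCE embryos. *Epyc*, the next family gene there and not among the 10, was higher in both (log2 fold change 0.69).

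Lengths and positions are from the GRCm38 annotation (GENCODE M21), matched by gene symbol, whereas the reads were mapped to mm9. Most members sit in 3 clusters. *Dcn* (chromosome 10, 97479609 to 97518143), *Lum* (97565128 to 97572703), *Kera* (97606879 to 97613692) and the class III gene *Epyc* lie in that order within 203 kb, all on the plus strand. *Ecm2*, *Aspn* (chromosome 13, 49544443 to 49567565), *Omd* (49582462 to 49592822) and *Ogn* (49608046 to 49624501) lie within 120 kb of chromosome 13, all on the plus strand and inside the span of *Cenpp*, a centromere protein gene on the minus strand. *Optc*, *Prelp* (chromosome 1, 133910304 to 133921414, minus strand) and *Fmod* (134037254 to 134048277, plus strand) lie within 151 kb of chromosome 1. *Bgn* (chromosome X, 73483602 to 73495933) and *Podn* (chromosome 4, 108014791 to 108096445) stand alone.

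The upstream bases of *Fmod* and *Aspn*, the members with the highest log2 fold changes, are shown as the sequence nearest to the starts of these transcripts. They are the 250 bases before the transcript start in RefSeq (GRCm38.p6), 5′ to 3′ on the plus strand, at chr1:134037004-134037253 for *Fmod* and chr13:49544193-49544442 for *Aspn*. Capitals mark matches, on either strand, to the TATA box letters TATAAA, to the CCAAT box or to the E-box CANNTG.

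Fmod: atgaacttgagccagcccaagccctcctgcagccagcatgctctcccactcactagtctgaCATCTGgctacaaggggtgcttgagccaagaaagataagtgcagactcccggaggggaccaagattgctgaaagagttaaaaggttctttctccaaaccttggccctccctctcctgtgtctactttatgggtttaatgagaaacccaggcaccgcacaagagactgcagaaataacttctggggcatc

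Aspn: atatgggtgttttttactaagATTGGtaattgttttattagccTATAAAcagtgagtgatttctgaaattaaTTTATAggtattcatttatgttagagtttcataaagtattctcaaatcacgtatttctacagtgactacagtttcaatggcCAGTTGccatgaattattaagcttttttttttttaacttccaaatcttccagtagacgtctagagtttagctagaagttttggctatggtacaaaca

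The *Fmod* window holds 1 E-box, 189 bases before the start, and is 51.2% G or C. The *Aspn* window is 30.0% G or C and holds an E-box 97 bases before the start and matches to TATAAA at 207 and 178 bases, farther out than a TATA box usually lies. An E-box was present in 66.2% of the 32851 upstream windows in the table, TATAAA in 12.4% and CCAAT in 33.8%. The letters CAGTAGC, the core bound by Odd-skipped related factors, stood in 3.03% of all windows and in none of the windows read for 7 members. SOX-type ACAATG stood in 10.7% and GGGCGG in 32.7% of windows, and neither was found upstream of these 2 genes. A match is a description of the letters only. The RefSeq table held 8 of the 10 members, and the *Kera* window lay wholly within an annotated exon and was not read.

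In control cells the 10 genes differed widely in level. By TPM in the GCE/+ embryos *Dcn* led with 678 ± 127 (SD), rank 193 of all genes. *Lum* followed with 532 ± 47.4 TPM, and both *Dcn* values were above both *Lum* values. *Bgn* with 304 ± 30.9 and *Ogn* with 295 ± 45.4 TPM could not be ordered, since their values overlapped. *Kera*, best known from the cornea, had 144 ± 6.23 TPM, *Aspn* 97.4 ± 28.2 TPM and *Fmod* 45.5 ± 4.31 TPM, each apart from its neighbours in the order. *Prelp* with 12.2 ± 6.16 TPM and *Podn* with 8.05 ± 0.261 TPM overlapped. *Omd* was last with 0.797 ± 0.359 TPM and rested on 50, 21, 37 and 38 counts in GCE/+ 1, GCE/+ 2, GCE/GCE 1 and GCE/GCE 2.

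The 10 genes together made up 0.233% and 0.191% of all TPM in GCE/+ embryos 1 and 2 and 0.196% and 0.172% in GCE/GCE embryos 1 and 2. These sums overlapped between the genotypes. So did the shares of *Lum*, *Bgn*, *Podn* and *Omd* within the family, taken singly. *Dcn*, *Lum* and *Kera* supplied 63.7% and 64.3% of the family's TPM in the controls and 50.9% and 51.1% in the mutants. *Fmod*, *Aspn* and *Prelp* supplied 7.84% and 6.69% in the controls and 13.7% and 15.2% in the mutants. The groupings follow the measured directions, so it is a description that these shares did not overlap.

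**Figure D1:**
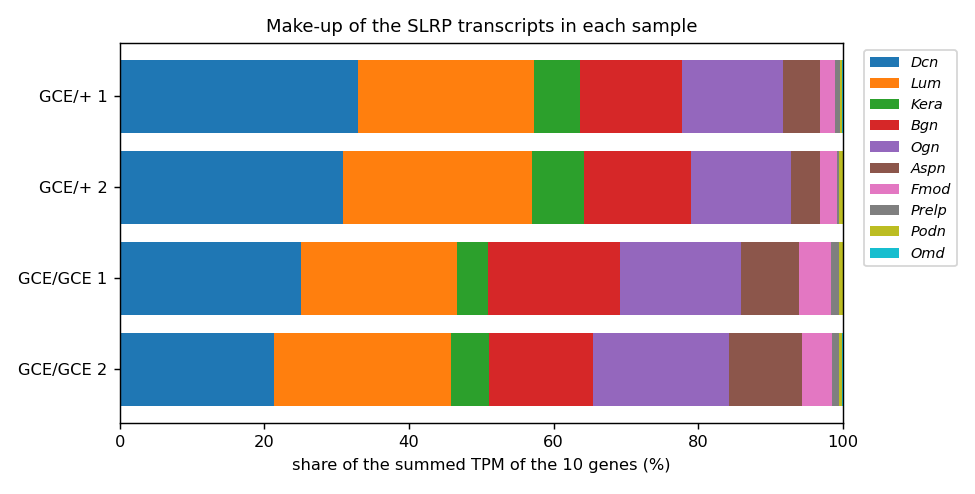
Share of each gene in the summed TPM of the 10 SLRP genes (x axis, percent) for each of the 4 samples (y axis); colours stand for genes. The part taken by Dcn, Lum and Kera is 63.7% and 64.3% in the GCE/+ samples and 50.9% and 51.1% in the GCE/GCE samples.

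The counts were compared between genotypes to ask how matrix genes of Osr1+ cells depend on Osr1. In the quasi-likelihood fit across all genes, 1 of 10 members was called lower, where 0.927% of all tested genes were, and 1 was called higher, where 0.895% were. Without overlap, 3 members were lower and 3 higher in GCE/GCE cells, against those shares of all tested genes, and 3 of 10 is not far from that background. The median log2 fold change of the members was 0.07, and that of all tested genes was 0.00. Single members lay towards both ends of the distribution. *Kera* and *Dcn* stood at the 2.98 and 3.25 percentiles of all log2 fold changes and *Fmod*, *Aspn* and *Prelp* at 98.4, 98.2 and 97.2.

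Among class I genes, decorin binds type I collagen and is the main dermatan sulfate proteoglycan of loose connective tissue. *Dcn* reached 517 and 375 CPM in GCE/+ embryos 1 and 2, against 316 and 242 CPM in GCE/GCE embryos 1 and 2. The mutants were both lower, by a log2 fold change of -0.68 (adjusted p = 0.131, SE 0.17), although embryos of the same genotype were also far apart, by 0.46 among the controls and 0.38 among the mutants on the log2 scale. *Dcn* was past the threshold in DESeq2 (adjusted p = 0.00106). In edgeR its log2 fold change was -0.89 without GCE/+ embryo 2 and -0.43 without GCE/+ embryo 1. It was -0.89 without GCE/GCE embryo 1 and -0.50 without GCE/GCE embryo 2.

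Biglycan is the closest relative of decorin and carries the same kind of chain. *Bgn* had 274 and 224 CPM in the controls, and 288 and 202 CPM in GCE/GCE embryos 1 and 2, so the highest and the lowest value both belonged to mutants. Its log2 fold change was -0.02 (adjusted p = 0.989, SE 0.16). *Bgn* is X-linked, and its highest value was in the library with *Xist*. Without that library the log2 fold change was -0.31, and without GCE/GCE embryo 2 it was 0.21. The part of embryo sex in this was not tested.

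Asporin, which lacks the glycosaminoglycan chain of its relatives and binds TGF-beta, moved the other way. *Aspn* measured 96.0 and 59.9 CPM in GCE/+ embryos 1 and 2 and 125 and 138 CPM in GCE/GCE embryos 1 and 2. Its log2 fold change of 0.76 (adjusted p = 0.126, SE 0.19) was about as large as that of *Fmod*, but the controls differed by 0.68 on the same scale. It missed the threshold in DESeq2 as well (adjusted p = 0.39). With any 1 of the 4 libraries left out, the log2 fold change ran from 0.46 to 1.13. *Aspn* shares exon bases with *Cenpp* on the opposite strand, and the library kit does not keep strand. *Cenpp* had at most 6.12 CPM, and the effect of the shared bases on the *Aspn* counts was not tested. In this bulk RNA, more cells of a type and more RNA per cell cannot be told apart, here and for each gene below.

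**Figure D2:**
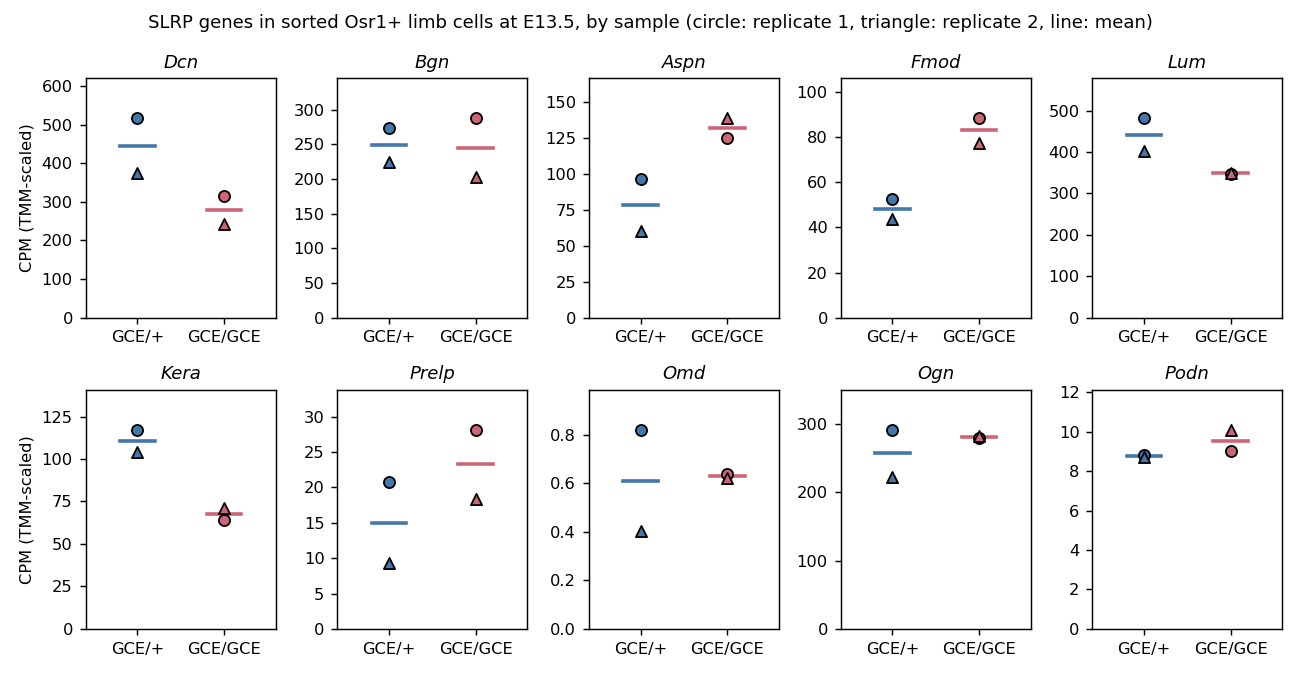
CPM of each of the 10 SLRP genes (y axes, each from 0) in the 2 GCE/+ and 2 GCE/GCE samples; circles are replicate 1, triangles replicate 2 and lines the means. Dcn, Lum and Kera lie below, and Aspn, Fmod and Podn above, the control range in each mutant sample.

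Class II held both genes that passed in edgeR. Keratocan, a keratan sulfate proteoglycan, had its transcript at 117 and 104 CPM in the controls and at 64.1 and 71.0 CPM in GCE/GCE embryos 1 and 2. *Kera* fell by 0.71 on the log2 scale (adjusted p = 0.0249, SE 0.09). Embryos of the same genotype differed by 0.17 among the controls and 0.15 among the mutants on the same scale, so the groups lay well apart.

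Fibromodulin organises collagen fibrils in tendon and cartilage. *Fmod* rose from 52.6 and 43.6 CPM in GCE/+ embryos 1 and 2 to 88.5 and 77.7 CPM in GCE/GCE embryos 1 and 2, a log2 fold change of 0.79 (adjusted p = 0.03, SE 0.11). Both genes stayed past the threshold under each alternative setting that kept every library. Adjusted p was at most 0.0813 for *Fmod* and 0.0677 for *Kera*, both in the edgeR fit without a filter on low counts.

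Lumican is a keratan sulfate proteoglycan of many connective tissues and shares a collagen binding region with fibromodulin. *Lum* stood at 481 and 402 CPM in the controls and at 346 and 350 CPM in the mutants, which nearly coincided. Its log2 fold change was -0.34 (adjusted p = 0.233, SE 0.11), and DESeq2 gave an adjusted p of 0.0662. In edgeR its log2 fold change was -0.47 without GCE/+ embryo 2 and -0.21 without GCE/+ embryo 1. It was -0.34 without GCE/GCE embryo 1 and -0.35 without GCE/GCE embryo 2. The size of the difference was less than that for *Kera* and *Dcn*, at 0.79 times the control level.

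Prolargin anchors basement membrane to the collagen beneath and is abundant in cartilage. *Prelp* had 20.7 and 9.27 CPM in GCE/+ embryos 1 and 2 and 28.2 and 18.4 CPM in GCE/GCE embryos 1 and 2. The genotypes overlapped, since GCE/GCE embryo 2 was below GCE/+ embryo 1, and the controls differed by 1.16 on the log2 scale. The log2 fold change of 0.63 (adjusted p = 0.609, SE 0.33) ranged from 0.17 to 1.32 as single libraries were left out. *Prelp* also shares exon bases with an annotated antisense gene. *Omd*, known from bone, had 0.821, 0.402, 0.637 and 0.621 CPM in GCE/+ 1, GCE/+ 2, GCE/GCE 1 and GCE/GCE 2. With a log2 fold change of 0.02 (adjusted p = 0.997, SE 0.37) a difference was not detectable at this depth.

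Osteoglycin of class III, also called mimecan, is a collagen-binding SLRP of bone and soft tissue. *Ogn* had 292 and 222 CPM in the controls and 279 and 283 CPM in the mutants, both between the control values. Its log2 fold change was 0.13 (adjusted p = 0.862, SE 0.12). Podocan of class V, a collagen-binding protein, varied little. *Podn* had 8.82 and 8.74 CPM in the controls and 9.01 and 10.1 CPM in the mutants, a log2 fold change of 0.12 (adjusted p = 0.887, SE 0.14). Both mutant values were above both controls, and the value ran from 0.037 without GCE/GCE embryo 2 to 0.20 without GCE/GCE embryo 1.

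By another call rule, 4 members were past the threshold. DESeq2, which the study used, called *Dcn*, *Lum* and *Kera* lower, where 1.69% of its tested genes were, and *Fmod* higher, where 1.77% were.

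Genes of the family that were not among the 10 were counted as a separate list of 8. In edgeR 0 passed the threshold, 3 had an unadjusted p under 0.05 and DESeq2 called 1, higher. The share of all tested genes under that unadjusted p was not computed. Such counts, here and below, are therefore descriptions without a background. *Epyc*, *Chad* and *Chadl*, all known from cartilage, were higher in both mutants than in both controls, and none of the 8 was lower in both. Of all tested genes 19.2% were higher and 19.1% lower in that way. *Epyc* (epiphycan), the fourth gene of the chromosome 10 cluster, had 2.55 and 3.48 CPM in GCE/+ embryos 1 and 2 and 5.43 and 4.25 CPM in GCE/GCE embryos 1 and 2, a log2 fold change of 0.69 (adjusted p = 0.25, SE 0.22). It therefore stood opposite to its 3 neighbours. *Chad* (chondroadherin) had a log2 fold change of 0.82 (adjusted p = 0.255, SE 0.26) and *Chadl* one of 0.70 (adjusted p = 0.117, SE 0.17). *Tsku*, the most abundant of the list with 31.5 and 29.5 CPM in the controls, had -0.04 (SE 0.10). *Ecm2*, *Optc*, *Nyx* and *Podnl1* were under 3 CPM in each library, with log2 fold changes from -0.30 to 0.21.

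Set out by position, the measured log2 fold changes were -0.68, -0.34, -0.71 and 0.69 along the chromosome 10 cluster, from *Dcn* to *Epyc*. Along the chromosome 13 cluster, from *Ecm2* to *Ogn*, they were 0.21, 0.76, 0.02 and 0.13, so that *Aspn* stood out from its neighbours, and from *Optc* to *Fmod* on chromosome 1 they were -0.06, 0.63 and 0.79. Annotated neighbours outside the clusters ranged from -0.22 to 0.15. *Btg1*, before *Dcn*, had -0.05 (SE 0.09), while *Ccer1*, after *Epyc*, was too low to test. *Ippk* and *Nol8*, on either side of the chromosome 13 cluster, had -0.10 (SE 0.11) and -0.02 (SE 0.10). *Atp2b4* and *Btg2*, on either side of the chromosome 1 cluster, had 0.15 (SE 0.09) and 0.02 (SE 0.14). *Lax1*, beyond *Atp2b4*, had -0.22 (SE 0.22), and *Iars*, beyond *Nol8*, had 0.00 (SE 0.09). None of these 7 passed the threshold, although *Atp2b4* was higher in both mutants without overlap. *Cenpp*, which spans the chromosome 13 cluster and is not among the 7, had -0.23 (SE 0.19). It did not pass either and was lower in both mutants without overlap.

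**Figure D3:**
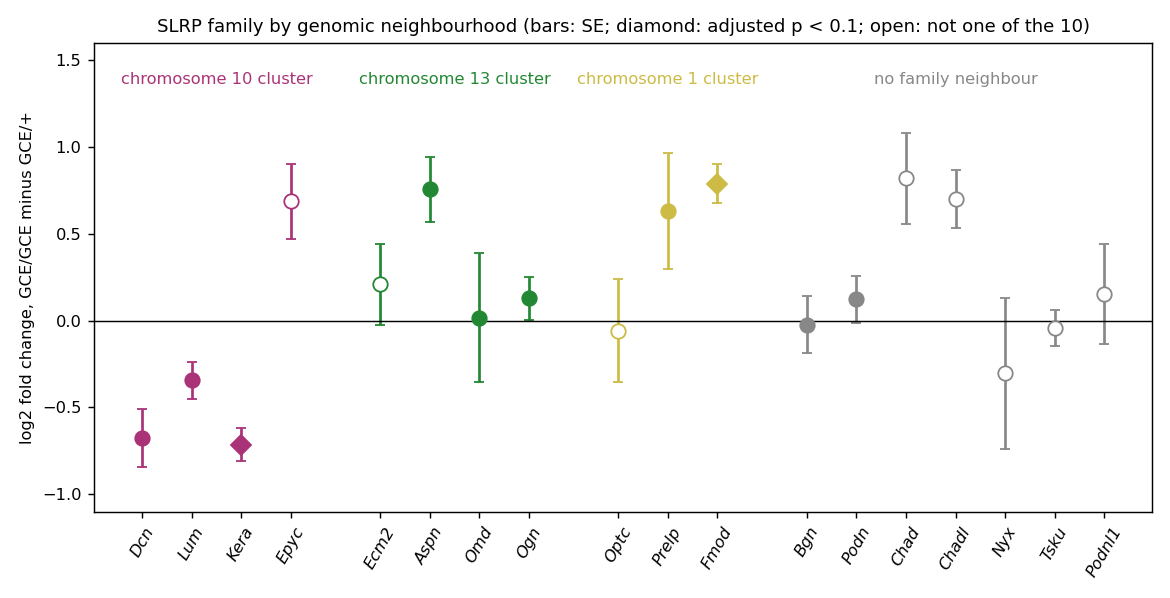
Log2 fold change of GCE/GCE over GCE/+ cells (y axis, bars are SE) for the 10 SLRP genes (filled) and 8 further family genes (open), set out by genomic neighbourhood; diamonds passed an adjusted p of 0.1. Dcn, Lum and Kera on chromosome 10 are at -0.68, -0.34 and -0.71, while their neighbour Epyc is at 0.69.

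Ratios of 2 transcripts within a sample do not depend on how libraries are scaled, and they separated the genotypes for several pairs, which were chosen with the values known. They do not remove a trend with length: over all tested genes log2 fold change and exon length had a Spearman correlation of 0.26. In the edgeR fit with length offsets the log2 fold changes were 0.80 for *Fmod*, -0.31 for *Lum* and -0.67 for *Kera*. For *Aspn*, *Dcn* and *Bgn* they were 0.80, -0.62 and 0.01. The TPM ratio of *Fmod* to *Lum* was 0.0858 and 0.0851 in the controls and 0.201 and 0.174 in GCE/GCE embryos 1 and 2, a change of 2.19-fold where the controls differed by 0.01 on the log2 scale. *Fmod* against *Kera*, the genes that passed in edgeR, went from 0.328 and 0.305 to 1.01 and 0.799. In class I, *Aspn* against *Dcn* went from 0.153 and 0.132 to 0.325 and 0.471, and *Dcn* against *Bgn* from 2.36 and 2.08 to 1.37 and 1.49. The ratio of *Prelp* to *Fmod*, neighbours on chromosome 1, overlapped between the groups, with 0.34 and 0.184 in the controls and 0.275 and 0.205 in the mutants. No test was made on the ratios, since 2 samples against 2 cannot go below p = 0.333 in an exact permutation test of both sides.

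**Figure D4:**
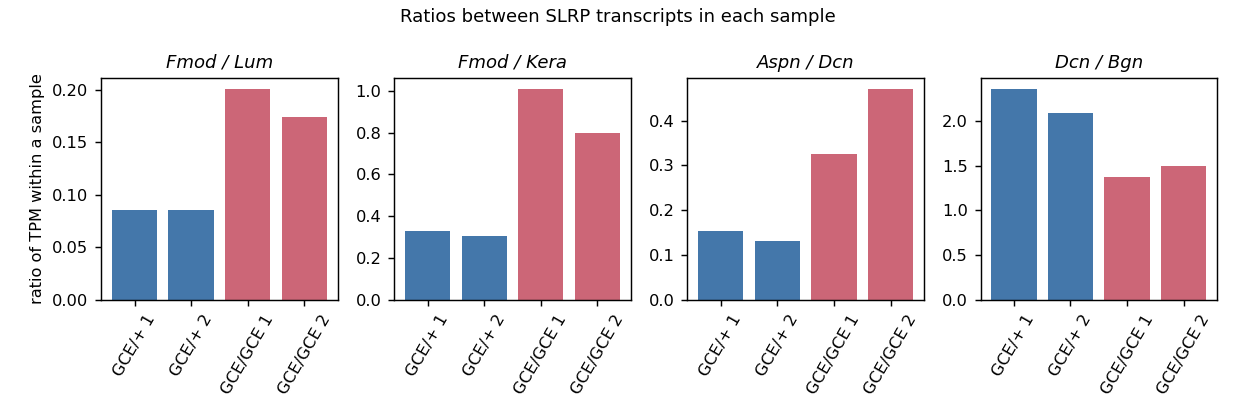
Ratio of TPM between pairs of SLRP genes within each of the 4 samples (y axes from 0), blue for GCE/+ and red for GCE/GCE. Fmod over Lum is 0.0858 and 0.0851 in GCE/+ and 0.201 and 0.174 in GCE/GCE samples, and Dcn over Bgn is 2.36 and 2.08 against 1.37 and 1.49.

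Embryos of the same genotype also differed. All 10 members were lower in GCE/+ embryo 2 than in GCE/+ embryo 1, by a median of 0.34 on the log2 scale, while 50.3% of all tested genes were. *Aspn*, *Prelp* and *Omd* differed by over 0.5 there, as 10.5% of all tested genes did. Between the GCE/GCE embryos 5 members were lower in embryo 2, as were 49.8% of all tested genes. *Bgn* and *Prelp* differed by over 0.5 there, as 8.78% of all tested genes did.

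Markers of tissues with their own SLRP mix moved as well. Beside the list counts here and below, edgeR called 0.895% of all tested genes higher and 0.927% lower. DESeq2 called 1.77% and 1.69% of its tested genes. Without overlap 19.2% of all tested genes were higher and 19.1% lower. Of 16 cartilage genes, 7 were called higher and 0 lower in edgeR (6 and 0 in DESeq2), and all 16 were higher in both mutants without overlap. Their summed CPM was 1058 and 1553 in GCE/+ embryos 1 and 2 and 2201 and 2377 in GCE/GCE embryos 1 and 2. The called genes were *Col11a1*, a minor fibrillar collagen, with a log2 fold change of 0.78 (SE 0.12), the transcription factors *Sox9* (0.63), *Sox5* (1.19) and *Sox6* (0.97), and the matrix genes *Col9a1* (0.97), *Col9a2* (0.59) and *Matn4* (0.81). Of 14 tendon genes 4 were called higher, namely the transcription factors *Mkx* (1.09, SE 0.10) and *Six2* (0.66, SE 0.12), *Tnmd* (2.06, SE 0.26) and the matrix protein gene *Tnc* (0.44, SE 0.09), and 0 were called lower, against 7 and 0 in DESeq2. Without overlap 8 tendon genes were higher and 0 lower, and the median of the list was 0.35. The summed tendon list overlapped, with 4537 and 3745 CPM in controls and 4827 and 3839 CPM in mutants. Its largest parts were *Postn* (1740 and 1399 CPM in the controls) and *Egr1* (1705 and 1320 CPM), which each overlapped. These 2 were named after their values were seen. The part of these lists in the changes of *Fmod*, *Aspn* and *Prelp* was not tested.

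Connective tissue fibroblast genes were counted beside the lower members. Of 16, 1 was called lower, the microfibril gene *Mfap5* (-1.47, SE 0.31), and 0 higher in edgeR, while DESeq2 called 4 lower and 0 higher. Without overlap 6 were lower and 1 higher, beside 19.1% and 19.2% of all tested genes. The 1 higher gene was *Tcf4* (0.21, SE 0.10), named after its values were seen. The marker that the study calls Tcf4 is another gene of the list, *Tcf7l2*, which was lower without overlap (-0.30, SE 0.08). The median of the list was -0.11. *Pdgfra*, a receptor gene that marks limb mesenchyme, had 833 and 977 CPM in the controls and 909 and 961 CPM in the mutants, *Fbn1*, of the same microfibrils, had a log2 fold change of -0.03 (SE 0.10), and the summed list had 3276, 3290, 3332 and 3131 CPM in GCE/+ 1, GCE/+ 2, GCE/GCE 1 and GCE/GCE 2. Of 9 tested osteoblast lineage genes 1 was called higher in edgeR, *Runx2* (1.05, SE 0.11), and DESeq2 called 2 higher and 1 lower. *Phex* had 0.12 (SE 0.09) and *Spp1* -0.58 (adjusted p = 0.131, SE 0.15). Macrophage markers were present in every library, and edgeR called 10 of 13 lower (DESeq2 12), from *Mrc1* (-0.82) to *C1qb* (-1.17), with summed CPM of 371 and 374 in controls and 233 and 162 in mutants. In edgeR 0 of 8 endothelial, 0 of 10 skeletal muscle and 0 of 6 tested erythroid markers were called, with 4, 2 and 0 at an unadjusted p under 0.05 and 1, 0 and 0 called by DESeq2. Of the endothelial markers 4 were lower and 1 higher without overlap, with a median of -0.41. Their summed CPM was 120 and 96.5 in controls and 97.2 and 80.8 in mutants. Of the skeletal muscle markers 5 were higher and 1 lower without overlap. Summed CPM ran from 164 to 214 for skeletal muscle and from 174 to 511 for erythroid markers.

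Collagens that SLRPs coat were taken as a list of 16, of which edgeR called 1 higher and 0 lower, 8 had an unadjusted p under 0.05, and DESeq2 called 2 higher and 2 lower. The gene called in edgeR was again *Col11a1*. *Col3a1*, of type III collagen and the most abundant of the list, had 9549 and 8787 CPM in the controls and 7716 and 6845 CPM in GCE/GCE embryos 1 and 2, lower without overlap (log2 fold change -0.33, adjusted p = 0.684, SE 0.20). *Col2a1* and *Col14a1* were picked after their values were seen. *Col2a1*, the main collagen of cartilage and a partner of fibromodulin, had 359 and 571 CPM in GCE/+ embryos 1 and 2 and 790 and 878 CPM in GCE/GCE embryos 1 and 2 (log2 fold change 0.84, adjusted p = 0.106, SE 0.19). *Col14a1*, whose product binds decorin, had 259 and 258 CPM in the controls and 236 and 163 CPM in GCE/GCE embryos 1 and 2 (log2 fold change -0.37, adjusted p = 0.421, SE 0.15). *Col1a2*, of the type I fibrils that decorin and lumican bind, overlapped and had a log2 fold change of -0.12 (SE 0.17). In all, 7 of the 16 were higher and 3 lower without overlap, beside 19.2% and 19.1% of all tested genes. The median was -0.10.

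Enzymes that build the chains were counted next. Of the 21 tested genes for the linker and for chondroitin or dermatan sulfate, 0 passed in edgeR, 1 had an unadjusted p under 0.05 and DESeq2 called 1, higher. Their median on the log2 scale was 0.04, within a range from -0.20 to 0.63. *Dse*, which turns chondroitin into dermatan sulfate, had 148 and 159 CPM in the controls and 158 and 148 CPM in the mutants, and *Chsy1*, a chain polymerase, had a log2 fold change of -0.01 (SE 0.08). Of 9 tested genes for keratan sulfate and tyrosine sulfation 0 passed in edgeR or DESeq2, and 1 had an unadjusted p under 0.05. Their median was -0.09, and 4 were lower and 1 higher without overlap, beside 19.1% and 19.2% of all tested genes. Among the lower were *B4galt1* (-0.11, SE 0.08) and *Tpst1* (-0.14, SE 0.09). *B3gnt7*, which extends keratan sulfate, had the lowest value of the list, -0.61 (adjusted p = 0.338, SE 0.22), and was named after its values were seen. The 5 proteases and enhancers that trim SLRP and collagen precursors, *Bmp1* (0.06, SE 0.09) and *Pcolce* (0.23, SE 0.12) among them, included 0 calls in edgeR or DESeq2 and 0 genes at an unadjusted p under 0.05, and had a median of 0.12.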

How the data were processed

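Cells of 4 limb samples were compared by RNA sequencing. The deposited values are raw counts of read pairs per gene, which the authors made by mapping paired reads to mm9 with TopHat2 and counting with HTSeq against UCSC gene models. Tool versions and the strand setting are not given in the sources used here, and the TruSeq v2 kit does not mark strand.

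Counts were tested with edgeR 4.0.16 in R 4.3.3 (filterByExpr, TMM, quasi-likelihood F-test, genotype as the only term, all 4 samples). P-values were adjusted by Benjamini-Hochberg over 15645 genes and called under 0.1. Standard errors were derived from the F statistic. CPM used TMM library sizes. TPM was computed with GENCODE M21 exon lengths, found for 97.9% of symbols, and no coordinate was converted between builds. DESeq2 1.42.0 (adjusted p under 0.1), other scalings and filters, length offsets, a replicate block and leaving out each library were the alternatives. The legacy quasi-likelihood fit was added after seeing the data. The fits were tested on simulated data.

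Libraries held 52121596 to 61402140 counts, so 3 counts correspond to at most 0.0574 CPM; this covers counting error only. Replicates were separate embryos. The members and gene lists were chosen with earlier results of these data known. By rule, all members, the other family genes, cluster neighbours, *Osr1*, *Xist* and, of each list, genes that were called, plus the 2 most abundant where fewer than 2 were, could be named. Of macrophage markers only those with the smallest and largest called change are named, endothelial, muscle and erythroid markers are given as counts and sums, and genes named outside the rule are stated. A signalling list is described in the closing section.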

Additional observations from a re-analysis of the deposited data

How the results depend on the processing

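*Kera* stayed lower and *Fmod* higher, past the threshold, under all 14 alternative settings, with log2 fold changes from -0.80 to -0.63 and from 0.66 to 0.93. Genes called numbered 285 in edgeR, 508 in DESeq2, 127 without a filter on low counts and 130 at an adjusted p under 0.05, and from 199 to 961 with 1 library left out. Members called numbered 2 in edgeR, 4 in DESeq2 and 4 to 5 with 1 library left out (5 without GCE/+ replicate 2 and without GCE/GCE replicate 2). With a library left out, the lone sample is assumed to vary like the other group. Of 140 recomputed member values 119 kept direction and side, 14 newly passed, 0 lost a call and 7 changed sign. *Bgn* turned to 0.014 with length offsets and ran from -0.31 to 0.21 with 1 library left out, positive without GCE/+ replicate 1 (0.12) and without GCE/GCE replicate 2. *Omd* turned to -0.0039 with upper quartile scaling and ran from -0.38 to 0.64 with 1 library left out, negative without GCE/+ replicate 2 and without GCE/GCE replicate 1 (-0.01). *Ogn* ran from -0.056 to 0.33, negative without GCE/+ replicate 2. The cause was not tested. The replicate block gave 290 genes and 3 members, adding *Dcn* (adjusted p = 0.0343, edgeR). Over 9763 genes, the gap between replicate 1 and its genotype mean correlated at 0.0045 between the genotypes. With 2 embryos per genotype, replicate 2 only mirrors replicate 1, so either replicate gives the same value. Across these genes the gaps of same-numbered embryos were thus nearly uncorrelated. Whether such embryos share more than a number was not tested further. The 3 lower, 3 higher and 4 overlapping members were the same in number under the other 3 scalings. Depth limits *Omd*, with 21 to 50 counts.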

Other observations

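Growth factors and receptors that SLRPs are known to bind, a list of 21, held 1 gene called higher and 3 called lower in the quasi-likelihood test of edgeR. Of all tested genes 0.895% were called higher and 0.927% lower. DESeq2 called 2 of the list higher and 5 lower. Without overlap 5 were higher and 7 lower, beside 19.2% and 19.1% of all tested genes. The median log2 fold change of the list was 0.06. *Tgfb3*, a TGF-beta ligand that decorin and its relatives bind, had 117 and 119 CPM in the controls and 158 and 153 CPM in GCE/GCE embryos 1 and 2, and rose by 0.40 on the log2 scale (adjusted p = 0.066, SE 0.08). *Bmp4*, a ligand that biglycan binds, had 53.8 and 51.95 CPM in the controls and 40.2 and 41.0 CPM in the mutants, and fell by 0.38 (adjusted p = 0.0988, SE 0.08). The groups did not overlap for either ligand.

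The receptor genes that were called lower were *Tlr2* and *Cd14*, through which free biglycan can signal in macrophages. *Tlr2* had 39.8 and 44.5 CPM in the controls and 26.8 and 20.9 CPM in GCE/GCE embryos 1 and 2, and fell by 0.82 (adjusted p = 0.0354, SE 0.13). *Cd14* had 14.0 and 14.7 CPM against 8.28 and 6.09 CPM, and fell by 1.00 (adjusted p = 0.039, SE 0.17). Macrophage markers were lower in the same libraries, 13 of 13 without overlap, and their part in the change of *Tlr2* and *Cd14* was not tested.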
